A study of Mus musculus with 12 samples.

Results

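RNA was measured for 10 imprinted genes of 6 loci among the 24391 gene symbols of a mouse embryonic stem cell (mESC) count table. The genes were taken by symbol, whatever their values: Peg3, Usp29 and Zim1 of 1 domain on chromosome 7, Mest on chromosome 6, Peg10 and Sgce, which start side by side elsewhere on chromosome 6, Snrpn and Ndn of another domain on chromosome 7, Impact on chromosome 18 and Plagl1 on chromosome 10. All are known as paternally expressed in the mouse except Zim1, a maternally expressed neighbour of Peg3. All 10 passed the filter on low counts, which left 17115 genes to test.

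The 12 libraries came from 4 female mESC lines of a cross between C57BL/6J-129/SvJ and Mus musculus castaneus. Lines 15.10 and 16.9 were Rif1F/F Rs26+/CreERT, with loxP-flanked Rif1 on both alleles, and lines 5.3 and 5.16 were Rif1+/+ Rs26+/CreERT, so the WT lines also carried the Rosa26 Cre that 4-hydroxytamoxifen (OHT) activates. From each line, 1 library was made without OHT, another from mESC treated with OHT for 2 days, and a further 1 from 2-day embryoid bodies (EB) formed after OHT. The 6 groups of 2 libraries are called F/F and WT before OHT, KO and WT mESC, and KO and WT EB. Replicate 3 is line 15.10 throughout, replicate 4 line 16.9, replicate 1 line 5.3 and replicate 2 line 5.16. The culture medium held serum, LIF, the MEK inhibitor PD0325901 and the GSK3 inhibitor CHIR99021. Each genotype rests on 2 lines, so genotype and any other difference between the pairs of lines cannot be told apart. The counts are not split by allele, so the parental origin of the RNA was not measured. In these bulk samples, fewer cells expressing a gene and less RNA per cell cannot be told apart.

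An imprinted gene is transcribed mainly from the allele of 1 parent, set by DNA methylation placed in the germline at a control region of its domain. In mouse embryos and mESC, the zinc-finger protein ZFP57 binds the methylated copy of such regions and recruits KAP1 (Trim28), which keeps them methylated, and loss of that methylation in culture can switch a gene to expression from both alleles or from none. RIF1 is a chromatin protein known for control of replication timing and for gene repression in mESC, and the series studied it with KAP1 in X inactivation.

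Sequence next to the start sites is shown for windows that matched the hexanucleotide below, for Ndn, and for the interval between Peg3 and Usp29. It was taken from RefSeq promoter windows (GRCm38.p6), cut to the 250 bases before a start, and is written 5′ to 3′ on the strand of the gene. The hexanucleotide that ZFP57 recognises, TGCCGC or its reverse complement GCGGCA, was searched on both strands, and matches are in capitals. It was found in 2850 of 32851 windows of that length, 8.68%. Windows were given for 7 of the 10 genes, and those not shown, another Mest window, 4 of Snrpn and the full Peg3 and Usp29 windows, held no match, while a further Mest window all but coincides with the one shown. Peg3 and Usp29 start 96 bases apart on opposite strands, and the interval between them, chr7:6730463-6730558 (strand of Peg3), held 3 CpG and no match.
Peg3-Usp29: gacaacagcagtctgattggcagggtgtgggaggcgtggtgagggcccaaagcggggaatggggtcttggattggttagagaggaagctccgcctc
A window before a Mest start, chr6:30737800-30738049 (plus strand), held 14 CpG and 2 matches, 1 before a Plagl1 start, chr10:13090582-13090831 (plus strand), held 19 CpG and 1 match, and 1 before Zim1, chr7:6696433-6696682 (minus strand), held 14 CpG and 1 match.
Mest: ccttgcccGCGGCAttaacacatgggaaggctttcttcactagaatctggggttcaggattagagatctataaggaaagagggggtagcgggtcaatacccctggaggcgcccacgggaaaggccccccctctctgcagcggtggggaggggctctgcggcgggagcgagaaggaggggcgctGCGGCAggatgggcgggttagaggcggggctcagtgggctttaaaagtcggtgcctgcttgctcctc
Plagl1: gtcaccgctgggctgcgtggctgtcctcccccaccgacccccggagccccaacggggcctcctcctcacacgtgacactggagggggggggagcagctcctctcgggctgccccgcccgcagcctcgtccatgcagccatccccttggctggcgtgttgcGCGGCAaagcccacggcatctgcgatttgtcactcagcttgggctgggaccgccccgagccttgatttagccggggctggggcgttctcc
Zim1: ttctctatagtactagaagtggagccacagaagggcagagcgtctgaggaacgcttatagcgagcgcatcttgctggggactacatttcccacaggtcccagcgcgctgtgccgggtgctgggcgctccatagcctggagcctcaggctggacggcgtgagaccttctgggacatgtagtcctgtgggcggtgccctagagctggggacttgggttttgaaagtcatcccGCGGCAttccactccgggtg
The window before Ndn, chr7:62348027-62348276 (plus strand), the gene with the largest difference between KO and WT EB, held 5 CpG and no match.
Ndn: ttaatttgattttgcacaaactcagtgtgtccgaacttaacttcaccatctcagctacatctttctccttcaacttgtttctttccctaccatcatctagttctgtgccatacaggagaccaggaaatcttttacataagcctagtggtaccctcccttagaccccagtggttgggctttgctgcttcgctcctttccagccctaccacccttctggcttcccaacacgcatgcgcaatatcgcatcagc
A match describes the letters only, since neither binding nor methylation was measured.

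Total counts per library ranged from 28600870 to 64808897. Rif1 stood at 702 and 661 CPM (counts scaled to library size) in KO mESC, against 1605 and 1455 CPM in WT mESC. In EB it stood at 789 and 845 CPM in KO, against 1382 and 1342 CPM in WT. Before OHT it was already lower in F/F lines, at 1172 and 1172 CPM, against 1537 and 1751 CPM in WT lines. Gene-level counts include exons that Cre leaves in place, so the share of undeleted cells is not given by them. WT mESC replicate 1 stood apart from the other libraries, with 0.869% of its counts on Lars2, against at most 0.140% elsewhere. The 8 pluripotency markers summed to 4260 to 4540 CPM in KO mESC and 3868 to 4004 CPM in WT mESC. In EB they summed to 1563 to 1684 CPM in KO and 1502 to 1595 CPM in WT. A part of the description label that was read as the flow cell did not vary within a condition but did between conditions.

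The 10 genes spanned a wide range of levels. Per kilobase of exon, Impact averaged 66.5 CPM in WT mESC, Mest 19.2, Peg3 13.6, Peg10 12.4, Plagl1 8.13 and Ndn 5.24. Sgce, at 0.184 CPM per kilobase, Snrpn, at 0.149, Zim1, at 0.131, and Usp29, at 0.113, formed a low tier. Of these, Usp29 and Snrpn share exon bases with other genes, so their levels are less certain. In WT EB the order changed: Peg10 led with 134 CPM per kilobase, followed by Impact with 95, Mest with 80.8 and Peg3 with 53.3, while Plagl1 stood at 0.593. The summed level of the 10 genes was 2079 and 2066 CPM in KO EB and 2415 and 2473 CPM in WT EB. In mESC the sums were 942 and 989 CPM in KO and 802 and 734 CPM in WT, and before OHT 915 and 980 CPM in F/F and 718 and 719 CPM in WT lines. Impact varied least over the 12 libraries, with a highest CPM 1.64 times the lowest, and Zim1 followed with 2.08 times. Plagl1 varied 30.9 times, Peg10 28.6 times and Mest 18.7 times. Snrpn varied 57.2 times, but on counts of only 1 to 57 per library.

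**Figure D1:**
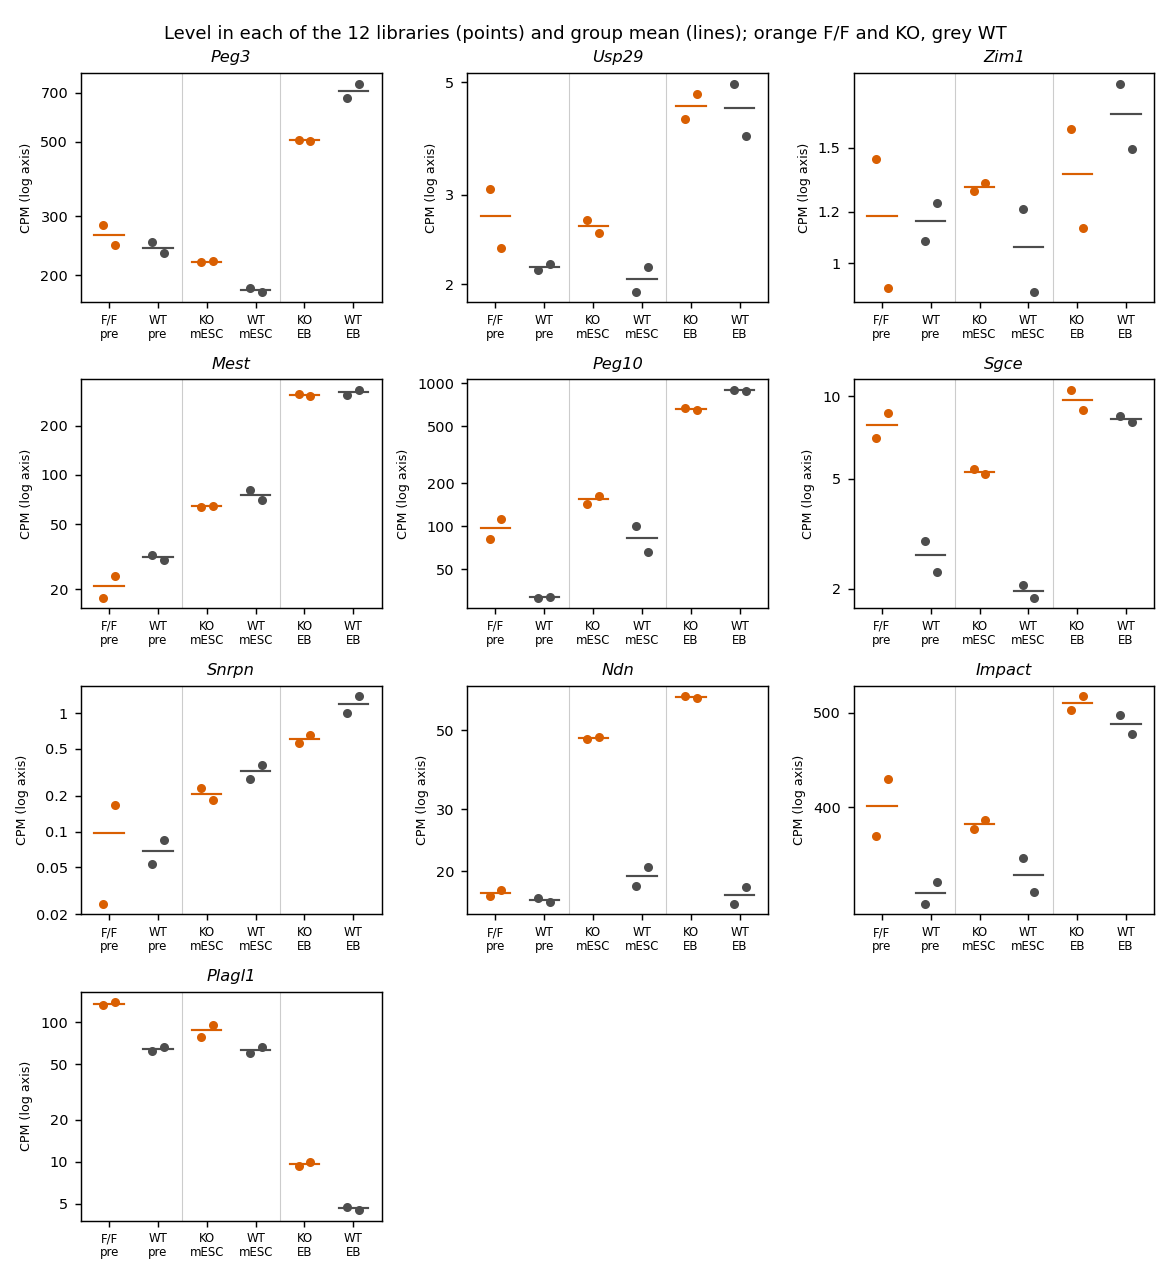
Each panel plots the CPM (log axis) of 1 gene in the 12 libraries (points) with group means (lines), F/F and KO in orange and WT in grey, in the order F/F and WT before OHT, KO and WT mESC, KO and WT EB. Ndn sits at 47.2 to 62.5 CPM in the 4 KO libraries and at 16.2 to 20.6 CPM in the other 8, whereas Mest, Peg10 and Peg3 are highest in EB and Plagl1 is lowest there.

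Differentiation to EB moved nearly the whole group. In WT EB against WT mESC, 8 of the 10 genes rose and 1 fell at an adjusted p under 0.05 (edgeR quasi-likelihood F test, Benjamini-Hochberg adjustment over 17115 genes), where 62.3% of all genes tested were called, 32.5% higher and 29.8% lower. The median log2 fold change was 1.51 over the 10 genes and 0.04 over all genes. In KO EB against KO mESC the counts were also 8 and 1, against a background of 59%, 31.4% higher and 27.6% lower, with a median of 0.83 over the 10 genes and 0.04 over all genes. Under upper-quartile scaling the median over all genes was 0.12 in WT and the split of all calls moved from 5554 higher and 5107 lower to 6409 and 4369. In KO it moved from 5371 and 4729 to 5936 and 4327. The change of condition cannot be told apart here from that of the label part read as the flow cell.

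Peg10, a retrotransposon-derived gene required for placenta formation, had the steepest rise in WT lines. Peg10 stood at 899 and 883 CPM in WT EB, against 99.6 and 65.6 CPM in WT mESC, a log2 fold change of 3.43 ± 0.16 (SE; adjusted p = 4.0e-12). In KO EB it stood at 669 and 652 CPM, against 144 and 163 CPM in KO mESC (log2 fold change 2.11 ± 0.15, adjusted p = 1.6e-09). Every EB library lay above every mESC library of its genotype.

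Mest, which encodes an alpha/beta-hydrolase-fold protein, rose to 307 and 331 CPM in WT EB, against 80.9 and 70.3 CPM in WT mESC (log2 fold change 2.08 ± 0.10, adjusted p = 1.0e-11). KO lines had 312 and 301 CPM in EB and 63.6 and 64.8 CPM in mESC (2.26 ± 0.10, adjusted p = 4.8e-12). Peg3, a zinc-finger transcription factor tied in mice to growth and maternal behaviour, reached 674 and 746 CPM in WT EB, against 183 and 179 CPM in WT mESC (1.97 ± 0.08, adjusted p = 3.9e-13). In KO lines Peg3 had 506 and 505 CPM in EB and 219 and 220 CPM in mESC (1.2 ± 0.07, adjusted p = 2.7e-10). For both genes the EB libraries lay apart from the mESC libraries.

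Plagl1 went the other way. This growth-restraining zinc-finger transcription factor, also called Zac1, was at 4.76 and 4.51 CPM in WT EB, against 60.6 and 66.5 CPM in WT mESC (log2 fold change -3.78 ± 0.11, adjusted p = 1.2e-14). In KO lines it was at 9.29 and 9.95 CPM in EB and 78.7 and 95.9 CPM in mESC (-3.18 ± 0.10, adjusted p = 5.5e-14). Hymai, a noncoding RNA that lies within the span of Plagl1, fell as well, with log2 fold changes of -4.73 ± 0.26 in WT and -3.51 ± 0.23 in KO lines. Hymai counts were 10 and 8 in WT EB and 422 and 320 in WT mESC.

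Rises were also measured for Sgce, Usp29, Snrpn and Impact. Sgce, the epsilon-sarcoglycan gene, rose in WT EB against WT mESC by 2.07 ± 0.17 (adjusted p = 8.9e-09) and in KO EB against KO mESC by 0.87 ± 0.16 (adjusted p = 1.6e-04). Usp29, a ubiquitin-specific peptidase gene, rose by 1.12 ± 0.19 in WT (adjusted p = 6.1e-05) and by 0.78 ± 0.20 in KO lines (adjusted p = 2.5e-03). Impact, an inhibitor of the eIF2-alpha kinase GCN2, rose by 0.51 ± 0.07 in WT (adjusted p = 7.5e-06) and by 0.41 ± 0.07 in KO lines (adjusted p = 8.9e-05). These 3 genes had EB libraries above all mESC libraries of the same genotype.

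Snrpn, which encodes the spliceosomal protein SmN, was barely detected, with 33 and 57 counts in WT EB and 17 and 19 in WT mESC. The rise in WT was 1.91 ± 0.39 on the log2 scale (adjusted p = 3.9e-04). In KO lines, with 21 and 19 counts in EB and 7 and 6 in mESC, it was 1.52 ± 0.52 (adjusted p = 0.019), a call that was lost with DESeq2 (adjusted p = 0.0579) and without KO mESC replicate 3 (0.0561) or 4 (0.109) or KO EB replicate 4 (0.0783). Snurf, which shares exons with Snrpn, is listed at 0 in all 12 libraries.

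Zim1 and Ndn were the 2 genes whose call differed between genotypes. Zim1, a zinc-finger gene, had 1.88 and 1.5 CPM in WT EB and 1.21 and 0.906 CPM in WT mESC (0.65 ± 0.28, adjusted p = 0.048). That call was lost with DESeq2 (adjusted p = 0.119), without WT mESC replicate 2 (0.46, adjusted p = 0.225) and without WT EB replicate 1 (0.45, adjusted p = 0.275) or 2 (0.79, adjusted p = 0.0627). In KO EB against KO mESC the value was 0.08 ± 0.30 (adjusted p = 0.84). Ndn encodes necdin, a growth-suppressing protein of the MAGE family. Ndn had 16.2 and 18.1 CPM in WT EB and 18.1 and 20.6 CPM in WT mESC (-0.17 ± 0.09, adjusted p = 0.095). It rose to 62.5 and 61.6 CPM in KO EB, against 47.2 and 47.8 CPM in KO mESC (0.39 ± 0.08, adjusted p = 6.5e-04). The tests of the differences between genotypes are given with the EB results.

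**Figure D2:**
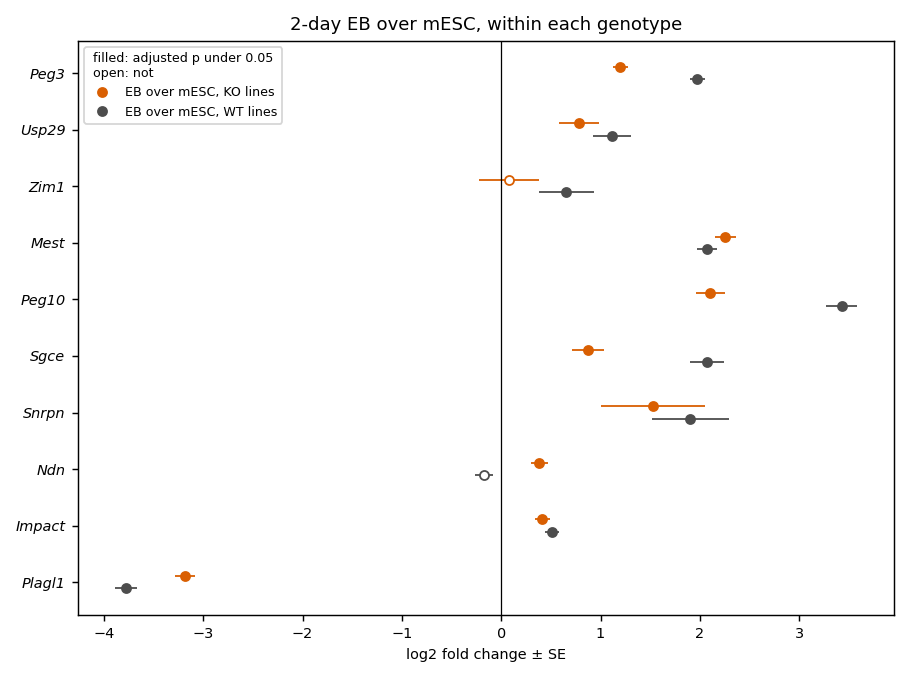
Points give the log2 fold change of EB against mESC and lines ± 1 SE for each gene in KO (orange) and WT (grey) lines, filled where adjusted p was under 0.05. In both genotypes Peg10, Mest and Peg3 lie far right of 0 and Plagl1 far left, at -3.18 in KO and -3.78 in WT.

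Before OHT, when Rif1 had not been deleted, 5 of the 10 genes already differed between the pairs of lines. In F/F against WT lines 4 were higher and 1 lower, where 37.4% of all genes were called, 19.9% higher and 17.5% lower. The median log2 fold change was 0.31 over the 10 genes and near 0 over all genes. Upper-quartile scaling turned the split of all calls from 3402 higher and 2992 lower to 2633 and 3779.

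Peg10 and Sgce stood furthest apart. Peg10 had 80.7 and 112 CPM in F/F lines, against 31.4 and 32.1 CPM in WT lines (log2 fold change 1.60 ± 0.15, adjusted p = 4.2e-07). Sgce had 7.02 and 8.70 CPM in F/F lines, against 2.98 and 2.30 CPM in WT lines (1.57 ± 0.17, adjusted p = 1.6e-06). Plagl1 had 132 and 139 CPM in F/F lines, against 61.8 and 66.1 CPM in WT lines (1.08 ± 0.09, adjusted p = 4.4e-08). Both F/F libraries exceeded both WT libraries for each of these genes.

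Impact had 374 and 428 CPM in F/F lines and 318 and 336 CPM in WT lines (0.29 ± 0.07, adjusted p = 3.7e-03). Without F/F replicate 4 it was 0.20 (adjusted p = 0.0665). Mest was the lower gene, with 17.7 and 24.2 CPM in F/F lines, against 32.3 and 30.3 CPM in WT lines (-0.58 ± 0.11, adjusted p = 5.0e-04). Without F/F replicate 3 the Mest value was -0.36 (adjusted p = 9.3e-03).

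The other 5 did not pass. Peg3 had 282 and 247 CPM in F/F lines and 251 and 233 CPM in WT lines, and the libraries overlapped (0.13 ± 0.07, adjusted p = 0.18). Ndn had 17.0 and 17.7 CPM in F/F lines and 16.8 and 16.4 CPM in WT lines (0.06 ± 0.09, adjusted p = 0.62). Usp29 differed by 0.33 ± 0.20 (adjusted p = 0.22) and Zim1 by 0.03 ± 0.30 (adjusted p = 0.96). Snrpn, with 1 and 7 counts in F/F lines and 2 and 3 in WT lines, had a log2 fold change of 0.49 ± 0.86 (adjusted p = 0.70).

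After OHT, in KO against WT mESC, 5 of the 10 genes were higher and 0 lower, where 38.4% of all genes were called, 19.8% higher and 18.6% lower. At an unadjusted p under 0.05 these counts were 6 higher and 1 lower in edgeR and in DESeq2, with no share of all genes given at that threshold. With adjustment DESeq2 also called 5 higher and 0 lower, where it called 3091 of 17115 genes higher and 2891 lower. The median log2 fold change was 0.32 over the 10 genes and near 0 over all genes. The 5 higher genes were Ndn, Sgce, Peg10, Plagl1 and Peg3. Of the other 5, Mest and Snrpn had negative and Usp29, Zim1 and Impact positive values.

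Ndn had 47.2 and 47.8 CPM in KO mESC, against 18.1 and 20.6 CPM in WT mESC. Both KO libraries lay far above both WT libraries, and the log2 fold change was 1.30 ± 0.08 (adjusted p = 4.3e-09). Within the floxed lines, KO mESC against 17.0 and 17.7 CPM in F/F before OHT, the rise was 1.45 ± 0.09 (adjusted p = 6.3e-09). WT lines changed by 0.22 ± 0.09 between the same conditions (adjusted p = 0.048, and 0.0582 with cell line as a block). That small change was lost without WT mESC replicate 2 (0.13, adjusted p = 0.301) or without either WT library before OHT (adjusted p = 0.113 and 0.135).

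Sgce and Peg10 kept the direction they had before OHT. Sgce had 5.42 and 5.21 CPM in KO mESC, against 2.06 and 1.85 CPM in WT mESC (1.44 ± 0.18, adjusted p = 7.0e-06). Peg10 had 144 and 163 CPM in KO mESC, against 99.6 and 65.6 CPM in WT mESC (0.89 ± 0.15, adjusted p = 1.4e-04). WT replicate 1, the library with high Lars2, was the upper of the WT values for Peg10, and the fits without 1 library at a time gave 0.62 to 1.24.

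Plagl1 had 78.7 and 95.9 CPM in KO mESC, against 60.6 and 66.5 CPM in WT mESC (0.46 ± 0.09, adjusted p = 4.9e-04). Peg3 had 219 and 220 CPM in KO mESC, against 183 and 179 CPM in WT mESC (0.28 ± 0.07, adjusted p = 6.0e-03). In both cases each KO library exceeded each WT library.

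Mest had 63.6 and 64.8 CPM in KO mESC and 80.9 and 70.3 CPM in WT mESC (-0.24 ± 0.10, adjusted p = 0.075). The KO libraries were below both WT libraries, without passing the test. Impact had 380 and 388 CPM in KO mESC and 355 and 327 CPM in WT mESC (0.17 ± 0.07, adjusted p = 0.068). Usp29 had 2.68 and 2.53 CPM in KO mESC and 1.93 and 2.16 CPM in WT mESC (0.35 ± 0.20, adjusted p = 0.19). Zim1 had 1.29 and 1.32 CPM in KO mESC and 1.21 and 0.906 CPM in WT mESC (0.30 ± 0.29, adjusted p = 0.45). Snrpn had 7 and 6 counts in KO mESC and 17 and 19 in the deeper WT mESC libraries (-0.62 ± 0.54, adjusted p = 0.39), too few counts to settle a difference.

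The conditions before and after OHT also differed within each genotype, again with condition and that label part confounded. In KO mESC against F/F before OHT, 3 genes were higher and 3 lower, where 43.7% of all genes were called, 22.1% higher and 21.5% lower. In WT mESC against WT before OHT, 4 were higher and 1 lower, where 49.1% were called, 24.9% higher and 24.2% lower. Upper-quartile scaling moved the WT split of all calls from 4264 higher and 4138 lower to 3185 and 5087. Mest rose in both genotypes, by 1.61 ± 0.11 in KO (adjusted p = 1.9e-08) and by 1.27 ± 0.10 in WT (adjusted p = 2.2e-07). Peg10 rose by 0.67 ± 0.15 in KO (adjusted p = 1.5e-03) and by 1.38 ± 0.15 in WT (adjusted p = 3.2e-06).

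Peg3 was lower after OHT in both, with a log2 fold change of -0.27 ± 0.07 in KO mESC (adjusted p = 7.7e-03) and -0.42 ± 0.07 in WT mESC (adjusted p = 2.0e-04). Without F/F replicate 3 the KO value of Peg3 was -0.17 (adjusted p = 0.12). Plagl1 fell by 0.64 in KO mESC against F/F before OHT (SE 0.09, adjusted p = 2.2e-05), while its value in WT mESC against WT before OHT was -0.01 (adjusted p = 0.94). Sgce was lower in KO mESC than in F/F before OHT, at -0.56 ± 0.16 (adjusted p = 9.0e-03). That call was lost without F/F replicate 4 (-0.40, adjusted p = 0.0984) or KO mESC replicate 4 (adjusted p = 0.0689). Snrpn was higher in WT mESC than in WT before OHT (2.18 ± 0.66, adjusted p = 0.011), on 2 and 3 counts before OHT. That call was lost without WT replicate 1 before OHT (1.89). Because Snrpn passed the low-count filter only through groups where it was higher, no conclusion is drawn from this call.

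The genotype effect in mESC after OHT minus that before OHT uses each pair of lines as its own baseline. It was called higher for 1 of the 10 genes and lower for 2, where 7.86% of all genes were called, 4.07% higher and 3.79% lower. Ndn was higher by 1.23 ± 0.12 on the log2 scale (adjusted p = 1.7e-05). Plagl1 was lower by this measure, at -0.63 ± 0.12 (adjusted p = 5.0e-03). Peg10 was also lower, at -0.71 ± 0.21 (adjusted p = 0.048), but that call was lost with upper-quartile scaling (adjusted p = 0.0712), with only the groups compared (0.123), with DESeq2 (0.166) and without WT mESC replicate 1 (-0.37, adjusted p = 0.225), F/F replicate 4 (-0.46, adjusted p = 0.235) and 4 of the other 6 libraries. For Sgce the difference was -0.13 (adjusted p = 0.79), and for Peg3 it was 0.15 (adjusted p = 0.39).

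**Figure D3:**
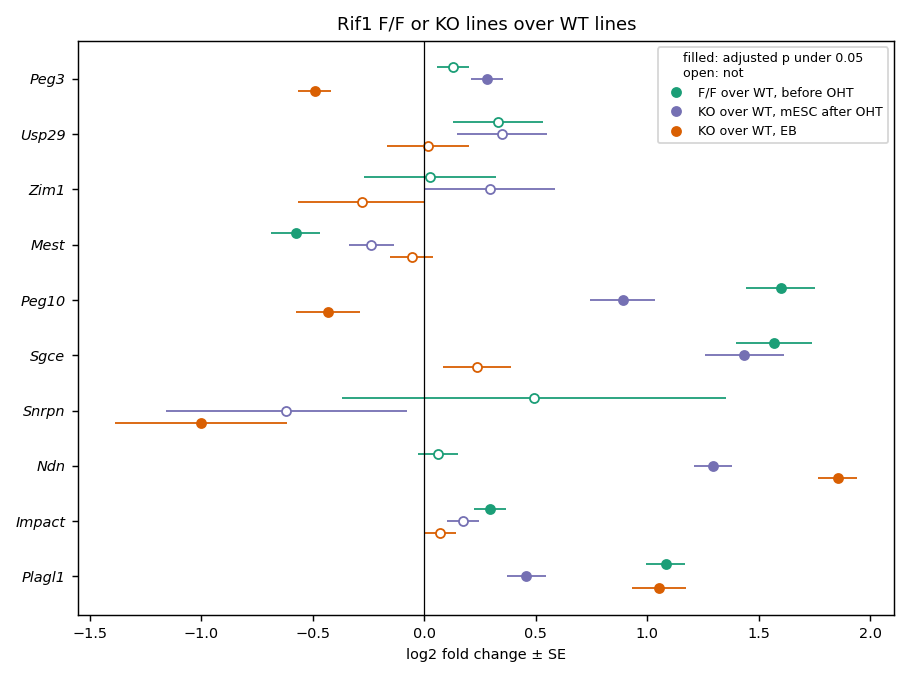
Points give the log2 fold change between genotypes and lines ± 1 SE for each gene, F/F against WT before OHT, KO against WT mESC and KO against WT EB, filled where adjusted p was under 0.05. Ndn lies near 0 before OHT, at 1.30 in mESC and at 1.86 in EB, whereas Peg10 lies at 1.60 before OHT, 0.89 in mESC and -0.43 in EB.

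In KO against WT EB, 2 of the 10 genes were higher and 3 lower, where 40.4% of all genes were called, 20.7% higher and 19.7% lower. The median log2 fold change was -0.02 over the 10 genes and also -0.02 over all genes. The 2 higher genes were Ndn and Plagl1 and the 3 lower were Peg3, Peg10 and Snrpn. With DESeq2, 3 of the 10 were called, where it called 6142 of the 17115 genes.

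Ndn had 62.5 and 61.6 CPM in KO EB, against 16.2 and 18.1 CPM in WT EB (1.86 ± 0.09, adjusted p = 3.9e-11). Plagl1, though far below its mESC level in both genotypes, had 9.29 and 9.95 CPM in KO EB, against 4.76 and 4.51 CPM in WT EB (1.05 ± 0.12, adjusted p = 2.7e-06). The KO and WT libraries of these genes did not overlap, and the differences held under each alternative tried.

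Peg3 had 506 and 505 CPM in KO EB, against 674 and 746 CPM in WT EB (-0.49 ± 0.07, adjusted p = 4.2e-05). Peg10 had 669 and 652 CPM in KO EB, against 899 and 883 CPM in WT EB (-0.43 ± 0.14, adjusted p = 0.023). With DESeq2 the adjusted p of Peg10 was 0.138, and without 1 library at a time it was 0.0796 to 0.111. Snrpn had 0.560 and 0.652 CPM in KO EB, against 1.00 and 1.40 CPM in WT EB (-1.0 ± 0.39, adjusted p = 0.048), with an adjusted p of 0.225 in DESeq2 and of 0.0633 to 0.317 without 1 library at a time. Both KO libraries were below both WT libraries for all 3 genes. With 2 libraries per group this is a description and no further test.

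Mest had 312 and 301 CPM in KO EB and 307 and 331 CPM in WT EB, with overlapping libraries (-0.06 ± 0.10, adjusted p = 0.69). Sgce had 10.5 and 8.89 CPM in KO EB and 8.49 and 8.04 CPM in WT EB (0.24 ± 0.15, adjusted p = 0.23). Impact had 504 and 521 CPM in KO EB and 498 and 476 CPM in WT EB (0.07 ± 0.07, adjusted p = 0.45). Usp29 had 4.24 and 4.74 CPM in KO EB and 4.97 and 3.92 CPM in WT EB (0.02 ± 0.18, adjusted p = 0.96). Zim1 had 1.60 and 1.13 CPM in KO EB and 1.88 and 1.5 CPM in WT EB (-0.28 ± 0.28, adjusted p = 0.46).

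The genotype effect differed between EB and mESC for 5 of the 10 genes, 2 higher and 3 lower, where 28.6% of all genes were called, 14.8% higher and 13.7% lower. This test also compares the EB response of KO lines with that of WT lines. Peg10 (-1.32 ± 0.20, adjusted p = 1.5e-04), Sgce (-1.20 ± 0.23, adjusted p = 1.1e-03) and Peg3 (-0.77 ± 0.10, adjusted p = 4.1e-05) rose less in KO than in WT lines. Plagl1 fell less in KO lines (0.59 ± 0.15, adjusted p = 6.9e-03), and Ndn rose more (0.56 ± 0.12, adjusted p = 2.4e-03). The EB response of Mest did not pass the test of a difference between genotypes (0.18, adjusted p = 0.37), nor did those of Usp29 (-0.33, adjusted p = 0.39), Zim1 (-0.58, adjusted p = 0.32), Snrpn (-0.38, adjusted p = 0.72) and Impact (-0.10, adjusted p = 0.50). Set against the effect before OHT, the effect in EB was higher for 2 genes, Ndn (1.79 ± 0.12, adjusted p = 1.3e-08) and Mest (0.52 ± 0.15, adjusted p = 0.012, but 0.0672 without F/F replicate 3 and 0.0530 without WT EB replicate 1), and lower for 3, Peg10 (-2.03 ± 0.21, adjusted p = 1.4e-06), Sgce (-1.33 ± 0.23, adjusted p = 2.8e-04) and Peg3 (-0.62 ± 0.10, adjusted p = 2.1e-04). Of all genes, 31.2% were called in that test, 15.5% higher and 15.7% lower.

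Sums of cell-type markers were set beside these EB values. The 4 formative epiblast markers summed to 959 to 963 CPM in KO EB and 1563 to 1576 CPM in WT EB, and all 4 were lower in KO EB. They summed to 146 to 151 CPM in KO mESC and 208 to 211 CPM in WT mESC. Before OHT these 4 already summed to 115 to 123 CPM in F/F and 136 to 149 CPM in WT lines. The 10 feeder fibroblast markers summed to 38.1 to 43.2 CPM in KO EB and 31.1 to 33.1 CPM in WT EB. In mESC they summed to 24.5 to 26.2 CPM in KO, with Col3a1 and Dcn at 0, and 17.9 to 20.1 CPM in WT, with Postn at 0. Of the 7 feeder markers tested, 3 were higher and 1 lower in KO against WT in mESC and again in EB, beside 19.8% and 18.6% of all genes in mESC and 20.7% and 19.7% in EB. The 5 mesendoderm markers summed to about 12.4 CPM in both KO mESC libraries and to 23.3 to 24.6 CPM in WT mESC, and to 22.7 to 23.9 CPM in KO EB and 21.3 to 22.1 CPM in WT EB. The 4 neural markers summed to 28.0 to 32.0 CPM in KO mESC and 49.3 to 51.0 CPM in WT mESC, and to 36.9 to 37.5 CPM in KO EB and 30.4 to 38.9 CPM in WT EB. The part of these cells in the differences of Peg3, Peg10 and Ndn was not tested.

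Genes that share a start region did not always keep their ratio. Sgce and Peg10 start 101 bases apart on opposite strands. Per 100 counts of Peg10 there were 3.19 and 3.78 counts of Sgce in KO mESC, against 2.07 and 2.82 in WT mESC. In EB there were 1.36 and 1.58 in KO, against 0.911 and 0.944 in WT. Before OHT the ratios overlapped, at 7.80 and 8.69 in F/F lines and 7.19 and 9.49 in WT lines. In each genotype the ratio was highest before OHT and lowest in EB, without overlap between conditions.

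The Peg3 and Usp29 starts bound the interval printed above. Per 100 counts of Peg3 there were 1.15 and 1.22 counts of Usp29 in KO mESC and 1.06 and 1.21 in WT mESC, which overlapped. EB libraries had 0.839 and 0.939 in KO and 0.526 and 0.738 in WT, which did not. Exons of Usp29 overlap those of Zim3 on the opposite strand over 14.3% of their bases, and it is not stated whether the counting used strand, so a part of its few reads may belong to either gene.

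**Figure D4:**
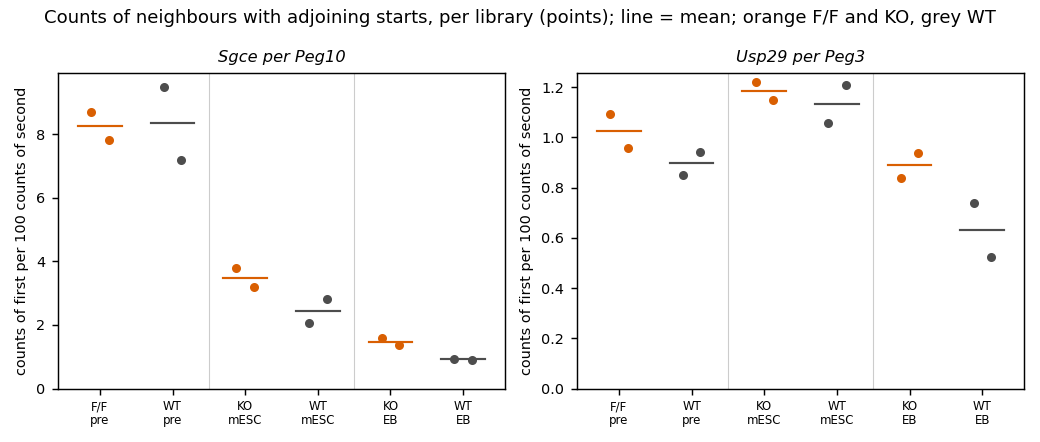
Each panel plots counts of 1 gene per 100 counts of its neighbour in the 12 libraries (points) with group means (lines), F/F and KO in orange and WT in grey. Sgce per 100 Peg10 counts lies at 7.19 to 9.49 before OHT and at 0.911 to 1.58 in EB.

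Mest overlaps Copg2, a coatomer subunit gene on the opposite strand, over 23.1% of its exon bases. The pair did not move together: Copg2 fell in WT EB against WT mESC (log2 fold change -0.72 ± 0.06), with 96.8 and 98.4 CPM in WT EB, against 167 and 155 CPM in WT mESC. Copg2 did not pass the test between genotypes in mESC (0.04, adjusted p = 0.64) or EB (-0.06, adjusted p = 0.47).

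Neighbours of Ndn in its domain were counted too. Magel2, another MAGE family gene, had 0.728 and 1.02 CPM in KO mESC, against 0.328 and 0.424 CPM in WT mESC (1.22 ± 0.30, adjusted p = 4.2e-03). In EB Magel2 had 9.26 and 9.85 CPM in KO, against 3.52 and 2.79 CPM in WT (1.60 ± 0.19, adjusted p = 2.7e-06). Before OHT its F/F and WT libraries overlapped (-0.11 ± 0.26, adjusted p = 0.78), and the genotype effect after OHT minus before it was 1.33 ± 0.40 (adjusted p = 0.049). Within the F/F lines Magel2 did not pass the test between KO mESC and F/F before OHT (-0.15 ± 0.27, adjusted p = 0.69), and it was lower in WT mESC than in WT before OHT (-1.48 ± 0.29, adjusted p = 4.5e-04).

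Peg12, a FRAT family gene, had 52.8 and 50.6 CPM in KO mESC, against 24.2 and 26.3 CPM in WT mESC (1.03 ± 0.11, adjusted p = 2.3e-06). In EB Peg12 had 14.0 and 14.6 CPM in KO, against 2.94 and 3.78 CPM in WT (2.07 ± 0.15, adjusted p = 7.4e-09). It was already higher in F/F than in WT lines before OHT (0.68 ± 0.12, adjusted p = 2.5e-04), and its effect after OHT minus before it did not pass (0.36 ± 0.16, adjusted p = 0.19).

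Mkrn3, a makorin ring finger gene, was higher in KO mESC (0.96 ± 0.12, adjusted p = 7.6e-06), in KO EB (0.43 ± 0.12, adjusted p = 8.5e-03) and in F/F lines before OHT (0.79 ± 0.12, adjusted p = 5.5e-05). Ndn, Magel2, Peg12 and Mkrn3 were thus all higher in KO than in WT at both times, whereas Ndn and Magel2 had no difference that passed the test before OHT. In EB against mESC they parted: Magel2 rose in WT by 3.06 ± 0.25, Peg12 fell by 2.90 (SE 0.14), and Ndn had -0.17 ± 0.09. Snrpn, of the same domain, was not higher in KO at either time. Ube3a, a ubiquitin ligase gene of the domain, was lower in KO mESC (-0.20 ± 0.07, adjusted p = 0.041) and not called in EB (-0.06, adjusted p = 0.53). Atp10a, another listed neighbour, averaged less in KO mESC, at 18.8 CPM, than in WT mESC, at 23.4 CPM. In EB Atp10a averaged 119 CPM in KO and 84.6 CPM in WT. Before OHT it averaged 9.61 CPM in F/F and 32.2 CPM in WT lines.

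**Figure D5:**
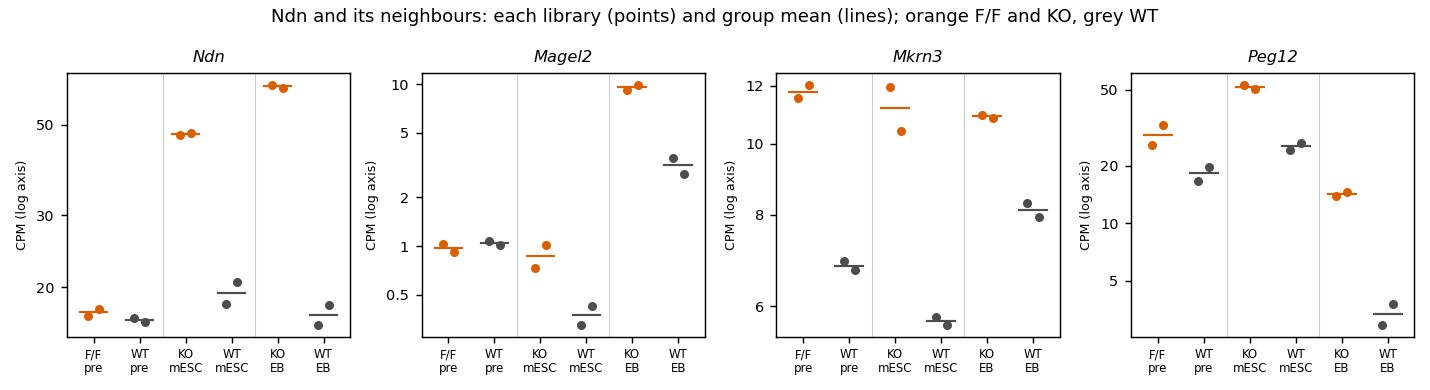
Panels plot the CPM (log axis) of Ndn and its neighbours in the 12 libraries (points) with group means (lines), F/F and KO in orange and WT in grey. KO libraries lie above WT libraries for Ndn, Magel2, Peg12 and Mkrn3 in mESC and EB, and in EB Magel2 is higher and Peg12 lower than in mESC.

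Over the 24 tested neighbours in the domains of the 10 genes, 7 were higher and 3 lower in KO against WT mESC, where 19.8% of all genes were called higher and 18.6% lower. In KO against WT EB, 11 were higher and 5 lower, where 20.7% of all genes were called higher and 19.7% lower. Before OHT, in F/F against WT lines, 8 were already higher and 2 lower, beside 19.9% and 17.5% of all genes. The genotype effect in mESC after OHT minus before it was called higher for 4 and lower for 0, beside 4.07% and 3.79% of all genes. Osbpl1a, which lies beside Impact, was higher by 0.28 ± 0.06 in mESC (adjusted p = 2.2e-03). Before OHT Osbpl1a already averaged more in F/F lines, at 151 CPM, than in WT lines, at 109 CPM. In EB Calcr, the calcitonin receptor gene near Peg10, had 4.22 and 5.39 CPM in KO, against 1.12 and 1.03 CPM in WT (2.15 ± 0.29, adjusted p = 1.4e-05). At levels near 0, Calcr already averaged more in F/F than in WT lines before OHT, 0.170 against 0.014 CPM. In mESC it averaged 0.225 CPM in KO and 0.037 CPM in WT. Ppp1r9a, a neurabin gene of the same domain, was lower in KO EB (-0.75 ± 0.08, adjusted p = 1.4e-06).

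Genes of imprint maintenance and establishment were listed with their own counts. Of 27 tested, 4 were higher and 10 lower in KO against WT mESC, beside 19.8% and 18.6% of all genes, with a median log2 fold change of -0.08. In EB, 5 were higher and 8 lower, beside 20.7% and 19.7% of all genes, with a median of -0.04. Before OHT, in F/F against WT lines, 6 were already higher and 5 lower, beside 19.9% and 17.5% of all genes. The genotype effect in mESC after OHT minus before it was called higher for 3 and lower for 4, beside 4.07% and 3.79% of all genes. The de novo methyltransferase genes Dnmt3b (-0.60 ± 0.07 in mESC and -0.65 ± 0.07 in EB) and Dnmt3a (-0.57 ± 0.08 in mESC and -1.35 ± 0.08 in EB) were lower at both times. Their cofactor gene Dnmt3l was lower in KO mESC (-0.79 ± 0.06) but higher in KO EB (0.22 ± 0.06, adjusted p = 0.011). Hells, a chromatin remodeller gene, was lower in mESC (-0.64 ± 0.07) and EB (-0.63 ± 0.07). Zfp42, which encodes REX1, was higher in mESC (1.32 ± 0.08) and EB (1.27 ± 0.09). Differences of the same sign as in mESC were already called in F/F against WT lines before OHT for Zfp42 (0.80 ± 0.08), Hells (-0.42 ± 0.07), Dnmt3a (-0.48 ± 0.08) and Dnmt3l (-0.48 ± 0.07), while Dnmt3b had -0.17 ± 0.07 (adjusted p = 0.074). Zfp57 was at 374 and 395 CPM in KO mESC, against 340 and 304 CPM in WT mESC (0.25 ± 0.08, adjusted p = 0.021), and fell with differentiation in WT (-1.35 ± 0.08) and KO lines (-1.65 ± 0.08). Before OHT Zfp57 already averaged more in F/F lines, at 319 CPM, than in WT lines, at 248 CPM.

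Imprinted genes of other loci were counted as a comparison. Of 20 paternally expressed genes tested, 7 were higher and 5 lower in KO against WT mESC, where 38.4% of all genes were called in either direction, and 4 higher and 7 lower in EB, where 40.4% were called. Of 21 maternally expressed genes tested, 11 were higher and 1 lower in mESC, beside 19.8% and 18.6% of all genes. In EB 7 were higher and 2 lower, beside 20.7% and 19.7%. Before OHT, in F/F against WT lines, 6 paternally expressed genes were already higher and 2 lower, beside 19.9% and 17.5%. Of the maternally expressed genes, 10 were higher and 6 lower there. The effect after OHT minus before it was called higher for 1 paternally and 2 maternally expressed genes, and lower for as many, beside 4.07% and 3.79%. Median log2 fold changes in mESC were near 0 for the paternally expressed genes and 0.32 for the maternally expressed genes. In F/F against WT lines before OHT these medians were 0.15 and 0.30. Among the named genes of these lists, the largest values in mESC were those of the Dlk1-Dio3 cluster, with Dio3 at 3.73 ± 0.18 and Meg3 at 2.97 ± 0.11. Both were already higher in F/F than in WT lines before OHT, Dio3 by 3.92 ± 0.20 and Meg3 by 2.44 ± 0.10. These lists overlap no member, and their difference from the 10 genes was not tested.

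The genes whose log2 CPM most resembled that of 3 of the 10 over the 12 libraries were ranked by Pearson correlation, among 13514 genes for Peg3 and Mest and 13515 for Snrpn with a mean log2 CPM of at least 0. For Peg3 they included Insm1 (0.995) and St8sia2 (0.994). For Mest they were Hmox1 (0.993), Sulf1 (0.992) and Enox1 (0.992), and for Snrpn Upp1 (0.983), Gtf2h3 (0.981) and Nudt19 (0.977). The points share 6 groups and the change of condition, so the values describe the likeness of the profiles only.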

How the data were processed

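Total RNA of 12 libraries was sequenced. The authors deposited raw, whole-number read counts per gene symbol in 1 table, which was tested as deposited. Per the submitters' processing notes, the tools were BWA, HTSeq and DESeq2 and the build was mm9, with no roles or versions. Whether counting used strand is not stated, so overlapping opposite-strand genes may share reads. Nor is it stated how reads in exons shared on the same strand were counted, as for Snrpn and Snurf. The test was the quasi-likelihood F test of edgeR 4.0.16 (R 4.3.3) on 1 model of 6 group means, with TMM scaling, the filterByExpr filter and Benjamini-Hochberg adjustment over 17115 genes at 0.05. Levels are CPM on TMM-scaled library sizes, and SEs come from the same fit. Where libraries of compared groups are said not to overlap, the share of all genes without overlap was not computed. Such separation is no test: Zim1 in KO against WT mESC had it too, at an adjusted p of 0.45. Titles of the libraries called F/F carry both KO and a bracketed WT, and they were read as undeleted because they had no OHT.

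The 10 genes, the lists and the tests were chosen with earlier results of these data known. Rif1 and the 10 genes were always named, with up to 4 genes per list with the smallest adjusted p in each KO against WT comparison and the 3 genes most like each of Peg3, Mest and Snrpn, of which 1 is not reported here. Neighbours named beyond that (Copg2, Hymai, Ube3a, Atp10a, Zfp57, Snurf, Zim2) were chosen after their values were seen. The reference is GRCm38, not the build of the counts, and was used for names, exon lengths (GENCODE M21) and RefSeq sequence.

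Replicate numbers stand for cell lines, so the same line links the conditions of a genotype. The correlations of the deviations of same-numbered libraries ranged from -0.07 to 0.09. The labels do not say whether libraries came from separate cultures, so p-values measure the spread between these lines and libraries. Replicates of each group differed by more than sampling noise, with a chi-square per degree of freedom of 4.48 to 69.3. Alternatives were upper-quartile scaling, DESeq2 1.42.0, no low-count filter, a fit of only the groups compared, cell line as a replicate block, and leaving out each library.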

Additional observations from a re-analysis of the deposited data

Results flagged for a closer look

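The genotype effect of 6 of the 10 genes differed between conditions by a test of the difference itself (edgeR quasi-likelihood F test, Benjamini-Hochberg adjustment over 17115 genes), in 13 results. Values are differences of log2 fold changes, with the effect of the later condition first.

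Ndn was higher in each of the 3 tests. The KO effect in mESC minus the F/F effect before OHT was 1.23 ± 0.12 (SE; adjusted p = 1.7e-05). The KO effect in EB minus that in mESC was 0.56 ± 0.12 (adjusted p = 2.4e-03), and that in EB minus the effect before OHT was 1.79 ± 0.12 (adjusted p = 1.3e-08). Both KO libraries lay above both WT libraries at each time after OHT.

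Peg10 was lower in each. The values were -0.71 ± 0.21 in mESC minus before OHT (adjusted p = 0.048, lost with upper-quartile scaling, only the groups compared, DESeq2 and 6 of 8 left-out libraries, which gave -0.98 to -0.37), -1.32 ± 0.20 in EB minus mESC (adjusted p = 1.5e-04) and -2.03 ± 0.21 in EB minus before OHT (adjusted p = 1.4e-06). Sgce, which starts beside it, gave -1.20 ± 0.23 in EB minus mESC (adjusted p = 1.1e-03) and -1.33 ± 0.23 in EB minus before OHT (adjusted p = 2.8e-04). Background shares of all genes called were 7.86%, 28.6% and 31.2% in the 3 tests.

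Peg3 gave -0.77 ± 0.10 in EB minus mESC (adjusted p = 4.1e-05) and -0.62 ± 0.10 in EB minus before OHT (adjusted p = 2.1e-04). Plagl1 gave -0.63 ± 0.12 in mESC minus before OHT (adjusted p = 5.0e-03) and 0.59 ± 0.15 in EB minus mESC (adjusted p = 6.9e-03), so that in EB minus before OHT it stood at -0.03 (adjusted p = 0.91). Mest gave 0.52 ± 0.15 in EB minus before OHT (adjusted p = 0.012), and without F/F replicate 3 this was 0.31 (adjusted p = 0.0672). The tests share groups and are not independent of each other.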

How the results depend on the processing

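Of 100 results on the 10 genes, 57 were called, and none of these reversed under any alternative run. The call was lost somewhere for 11 of them, and 8 others passed somewhere. Of the counts of calls, 2 moved by over 1.5 times outside the fits that leave out a library. The genes called for the genotype effect in mESC after OHT minus before it numbered 1346, but 2218 with no low-count filter, 705 with only the groups compared and 510 (without WT replicate 1 before OHT) to 2540 (without WT mESC replicate 2) with 1 library left out. Members called in KO against WT EB numbered 3 with DESeq2 and 3 without any 1 library. Without 1 library, all genes called numbered 4125 (without KO mESC replicate 4) to 6544 in KO against WT mESC, where 5 to 6 of the 10 were called, and 3326 to 5493 for the effect in EB minus mESC. Members called ranged from 3 to 5 in WT mESC against WT before OHT and from 2 to 3 for the effect after OHT minus before it.

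With cell line as a replicate block, possible within a genotype only, 69 results kept their call and direction, and Ndn in WT mESC against WT before OHT lost its call (0.22, adjusted p = 0.0582). Uncalled values near 0 changed sign under upper-quartile scaling for Usp29 in KO against WT EB (-0.021), Zim1 (-0.041) and Ndn (-0.0056) in F/F against WT, Impact in WT mESC against WT before OHT (-0.026) and Plagl1 in EB minus before OHT (0.00069). Plagl1 in WT mESC against WT before OHT was 0.0078 with no filter.

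Without 1 library, other uncalled values crossed 0. Ranges were -0.16 to 0.042 for Impact, -0.24 to 0.14 for Usp29 and -0.14 to 0.51 for Zim1 in KO mESC against F/F. They were -0.074 to 0.074 for Plagl1, -0.16 to 0.014 for Usp29 and -0.335 to 0.071 for Zim1 in WT mESC against WT before OHT. In KO against WT EB they were -0.095 to 0.011 for Mest and -0.14 to 0.21 for Usp29, and in F/F against WT -1.37 to 1.28 for Snrpn and -0.33 to 0.32 for Zim1. Zim1 in KO EB against KO mESC ranged from -0.21 to 0.29. For the effect after OHT minus before it, ranges were -0.33 to 0.050 for Sgce, -1.89 to 0.75 for Snrpn, -0.16 to 0.22 for Usp29 and -0.022 to 0.63 for Zim1. For EB minus before OHT they were -0.079 to 0.015 for Plagl1, -2.28 to 0.37 for Snrpn and -0.60 to 0.054 for Zim1. The cause was not tested. Snrpn, at 1 to 57 counts per library, and Zim1, at 33 to 74, rest on few counts, and 2 libraries per group limit every test.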

Other observations

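Hymai fell with Plagl1 in EB but did not follow it in every comparison. Hymai averaged 10.5 CPM in WT lines before OHT and 6.54 CPM in WT mESC, while Plagl1 averaged 64.0 and 63.6 CPM. Per 100 counts of Plagl1 there were 9.84 and 12.7 counts of Hymai in F/F lines and 15.6 and 17.2 in WT lines before OHT. In mESC after OHT there were 8.20 and 8.61 in KO and 9.27 and 11.4 in WT, and in EB 6.21 and 7.18 in KO and 4.35 and 6.37 in WT. Between genotypes Hymai was called in EB (1.39 ± 0.40, adjusted p = 9.8e-03) and before OHT (0.54 ± 0.15, adjusted p = 9.1e-03), but not in mESC (0.17 ± 0.16, adjusted p = 0.43).

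Zim2, beside Zim1 and Peg3, had 5.34 and 4.53 CPM in KO EB, against 1.82 and 2.65 CPM in WT EB (1.13 ± 0.22, adjusted p = 5.3e-04). Before OHT it had 2.62 and 1.76 CPM in F/F lines, against 4.93 and 3.82 CPM in WT lines (-1.0 ± 0.22, adjusted p = 1.6e-03). Its difference in KO against WT mESC was 0.04 ± 0.21 (adjusted p = 0.91). The genotype effect in EB minus that before OHT was 2.14 ± 0.31 (adjusted p = 5.5e-05), while Peg3 of the same domain gave -0.62 ± 0.10.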
